A study of Homo sapiens with 4 samples.

Results

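The response of A549 cells to nutlin-3a was read from the comparison of 2 of the 4 RNA sequencing libraries of the study. A549 is an established human lung adenocarcinoma line that keeps wild-type p53 and carries an inactivating KEAP1 mutation. Its cells had been stably infected with a lentivirus that expresses a negative control shRNA, and received either no drug or 10 µM nutlin-3a, and total RNA was taken 24 h later. Both libraries therefore share the virus and the control shRNA. The other pair of libraries, used here for values side by side, came from A549 cells with a lentiviral shRNA against LIMA1, untreated and with 10 µM nutlin-3a. The study asked how loss of LIMA1, which encodes the actin-binding protein EPLIN, alters the genes that p53 switches on. The rule took every gene model whose mean over the 2 control shRNA libraries was at least 30 normalized fragments, and this kept 12753 of 42113 models. A normalized fragment count is the number of sequenced fragments assigned to a gene, divided by 1 scaling factor per library and not by gene length, so levels of different genes are not compared.

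The p53 protein is a transcription factor that is held at a low level by MDM2, a ubiquitin ligase that binds it and marks it for destruction. Nutlin-3a occupies the p53 pocket of MDM2, so that p53 accumulates without DNA damage and activates genes that arrest the cell cycle, repair DNA, alter metabolism or promote cell death, MDM2 itself among them. The cell-cycle inhibitor p21, encoded by CDKN1A, keeps RB-family proteins active. RB-family complexes such as DREAM then repress genes of DNA replication and mitosis at promoter elements called CHR and E2F sites, with CCAAT boxes nearby.

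There was 1 library per group. No difference has a replicate check, no test was made, and every difference is one between 2 libraries. A difference is log2(value + 1) with nutlin-3a minus the same untreated, and a gene is called higher at 1 or above and lower at -1 or below. On this scale the difference of a gene with few fragments is understated. Intervals in brackets after a fold come from the exact Clopper-Pearson method at 95% and cover counting error only, since there was 1 library per group. The reads carry no molecular identifiers, so fragments copied from 1 molecule count separately, and the intervals may be too narrow.

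The control shRNA libraries held 16.7 M and 15.8 M fragments, and those of the LIMA1 shRNA cells 16.5 M and 15.2 M. All 12 markers of a lung epithelial line were measured, at 229 or more untreated. The 5 endothelial markers summed to 10.4 untreated and 12.9 with nutlin-3a, and KDR and TEK were at 0 in both. Of 8 leukocyte markers CD14 and CD68 alone were measured, while CD3D, CD3E and MS4A1 were at 0 in both libraries; the list summed to 765 untreated and 1007 with nutlin-3a. The 7 fibroblast markers summed to 141 and 66.5, with COL1A2 at 0 in both. The part of these markers in the results was not tested. LIMA1 stood at 416 untreated and 866 with nutlin-3a in control shRNA cells, against 68.3 and 133 in LIMA1 shRNA cells.

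Nutlin-3a went with 698 genes higher (5.47% of the 12753) and 717 genes lower (5.62%). Differences of at least 2 were less even, with 186 genes higher (1.46%) and 309 lower (2.42%), and at 4 or beyond there were 43 and 110. Most genes lay close to 0: the median difference was -0.02, the quartiles were -0.33 and 0.30, and 67.8% were within 0.5 of 0. For 419 of the higher and 516 of the lower genes the whole counting interval lay past the size for a call. Just inside it, 107 higher genes had differences of 1 to 1.1, and 154 genes just outside had 0.9 to 1; the counts for lower genes were 93 and 131. Calls were more frequent among weakly expressed genes. At a mean of 30 to 100, 13.2% of 1958 genes were higher and 7.71% lower, and at 3000 or more the shares were 3.08% and 3.49% of 974. Most values were whole multiples of what 1 fragment is worth. Of 9432 genes whose values could be checked for this, 1530 had values that were not whole; these are taken here to be estimates for models that share reads with another, are called shared-read genes, and made up 137 of the higher and 116 of the lower genes.

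**Figure D1:**
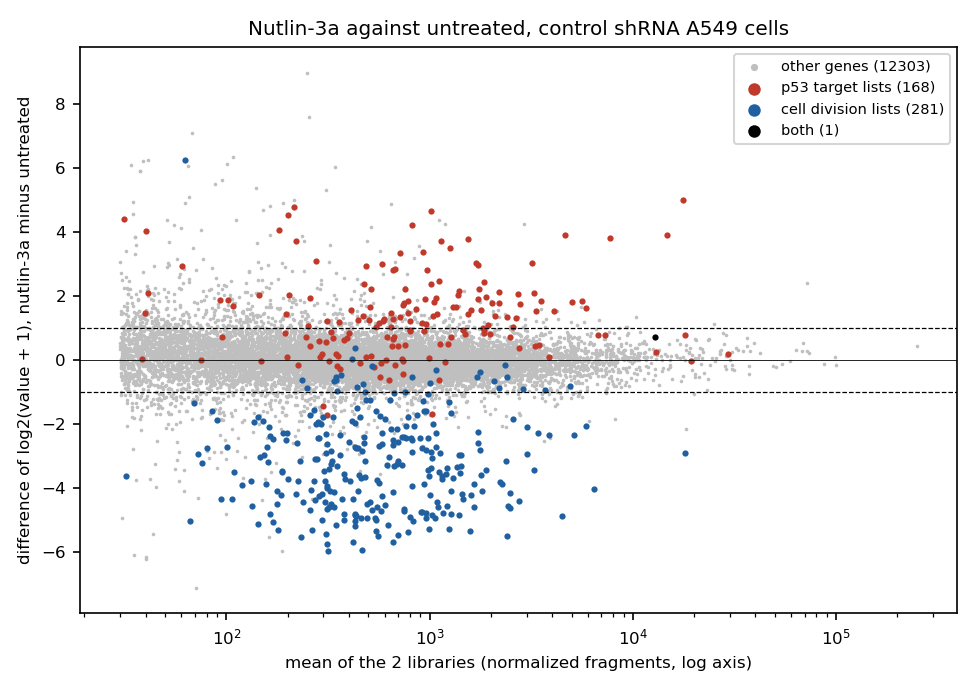
Difference of log2(value + 1), nutlin-3a minus untreated, against the mean of both control shRNA libraries in normalized fragments on a log axis; each point is 1 of 12753 genes and dashed lines mark 1 and -1. The p53 target lists lie mostly above the upper line and the division lists mostly below the lower line, with 599 higher and 458 lower genes among the other 12303.

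The p53 target MDM2 stood at 1844 untreated and 27580.3 with nutlin-3a, 15.0-fold higher (14.3 to 15.7), and CDKN1A at 1066 and 34078. The 5 broad lists of textbook p53 targets held 169 measured genes of 189, with 98 called higher and 3 lower. Their median difference was 1.25. The 3 lists of replication, mitosis and homologous recombination genes held 282 measured of 283, of which 256 were lower, with a median of -3.30. PRIM2, a primase subunit and a shared-read gene, was the single member of these called higher. It was at 0.664 and 125 in control shRNA cells, but at 1.22 and 0.514 in LIMA1 shRNA cells. In bulk RNA, fewer cells in S phase or mitosis and less of these transcripts per cell cannot be told apart.

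Outside these lists 12303 genes remained. Of them 599 (4.87%) were higher and 458 (3.72%) lower, which is 85.8% of all higher genes and 63.9% of all lower genes. Large differences outside the lists numbered 58 genes at 3 or above and 36 at -3 or below. Over all measured genes, with the lists included, these counts were 79 and 193. The lean to the higher side therefore appeared only once the lists were set aside, and the lists were chosen with earlier results of these data known. The lists hold textbook members alone, so genes with known links to p53 or to division remain among the 12303. Only some of them are named as such below, and a gene without that mention may have such a link too.

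Genes that were silent in untreated cells and well expressed with nutlin-3a included several surface proteins. CLCA2, a regulator of chloride conductance at the cell surface, had 0 fragments untreated and a value of 500.3 with nutlin-3a. With the untreated value set at its floor, 3 fragments in that library, this is at least 177-fold higher. BLNK, an adaptor protein of B-cell receptor signalling, was at 0 and 135, at least 47.7-fold higher. The nectin adhesion molecule PVRL4 had 1.89 untreated and 201 with nutlin-3a, a ratio of 106 (29.1 to 884). RGMA, a membrane-anchored guidance molecule, had 2.83 and 188. The endosomal protein gene NSG1 stood at 2.83 and 173, the zinc finger gene ZNF423 at 2.83 and 128, and DQX1 at 0.943 and 128. All of these 7 genes were also at 7 fragments or fewer in untreated LIMA1 shRNA cells and above 100 there with nutlin-3a. In the other direction, FAM72A had 127 untreated and 2.98 with nutlin-3a, and FANCB, of the Fanconi core complex, had 130.1 and 2.98.

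Higher genes of the cell surface and the matrix included components of epithelial attachment. COL17A1, a transmembrane collagen of hemidesmosomes, was at 42.4 untreated and 1256 with nutlin-3a, 29.6-fold higher (22.0 to 40.8). DSC3, a desmosomal cadherin, was at 143 and 1211, 8.45-fold higher (7.14 to 10.1). SULF2, an extracellular sulfatase that trims heparan sulfate, was at 293 and 5540.1, and the metalloprotease gene ADAMTS7 at 54.7 and 979. The matrix and matrix protease list had 16 of 69 measured genes higher (23.2%, against 5.47% of all genes) and 2 lower, with a median of 0.30 against -0.02 over all genes. Its further members included COL16A1 (17.0 and 81.4) and the metalloprotease MMP28 (47.1 and 206). By symbol, 5 of 21 collagens were higher and COL1A1 was the 1 lower, at 70.7 and 30.8. Of 8 laminins 7 had differences above 0, as did 48.5% of all genes, but LAMC3 alone was called, at a difference of 1.12.

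Epithelial junction and keratin genes as a whole had 5 of 57 members higher (8.77%) and 3 lower (5.26%), near the 5.47% and 5.62% of all genes, and the median was 0.01. Within that list PVRL4, DSC3, the polarity gene PARD6G (1.86) and GJC1 differed most, the last a connexin gene at 372 untreated and 99.3 with nutlin-3a. Keratins measured by symbol were 10, of which KRT4 (1.29), KRT15 (1.70) and KRT19 (1.42) were higher. GRHL3, a transcription factor of the epidermal barrier, stood at 52.8 and 366. FLG, which encodes the barrier protein filaggrin and is a shared-read gene, stood at 40.2 and 337. EPCAM, an adhesion protein of simple epithelia, was lower, at 229 and 111.

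Some receptors and ligands of axon guidance had large differences. PLXNB3, a receptor for semaphorins, was at 14.1 untreated and 602 with nutlin-3a, 42.5-fold higher (25.6 to 76.5). Netrin-1, NTN1, was at 9.43 and 212, and UNC5B, one of its receptors, at 55.6 and 270. Of 39 genes in this list 7 were higher (17.9%, against 5.47% of all genes) and 1 lower, while the median was 0.16. Protocadherins, homophilic adhesion molecules of a clustered family, had 15 of 18 measured genes above 0, against 48.5% of all genes. However, 12 of the 18 were shared-read genes, so some may count the same reads. The 3 called higher were all shared-read genes (PCDHA5, 1.54, PCDHA11, 1.16, and PCDHGB1, 1.05). CD82, a tetraspanin in the p53 lists, was at 128 and 1303, TSPAN1 at 33.9 and 149, and the adhesion molecule CEACAM1 at 375 and 1359. MCAM, an adhesion molecule of the immunoglobulin family, was lower, at 148 and 40.7.

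Some genes of lipid signalling were among the highest. INPP5D encodes SHIP1, a phosphatase that removes a phosphate from the lipid product of PI3-kinase, and stood at 12.3 untreated and 418 with nutlin-3a, 34.1-fold higher (19.7 to 64.6). ACER2, a Golgi ceramidase reported to be a p53 target, was at 49.0 and 602. DGKA, a diacylglycerol kinase in the p53 lists, was at 164 and 1154. Of 69 genes for sphingolipid, phosphoinositide and phospholipid enzymes, 7 were higher (10.1%) and none lower, against 5.47% and 5.62% of all genes; without members of the p53 and division lists 5 of 65 were higher (7.69%), nearer the share over all genes. In sterol metabolism the reductase gene TM7SF2 was at 261 and 1259, while the isomerase gene EBP of the same route was at 1449 and 605 and ACSL5, an acyl-CoA synthetase, at 88.6 and 18.9. ABCA1, the exporter of cellular cholesterol, was at 149 and 767.

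Transporters and channels were called in both directions. SLC52A1, a riboflavin transporter, was at 9.43 untreated and 678 with nutlin-3a, 71.9-fold higher (38.9 to 151). Other solute carriers among the highest were SLC44A5 (52.8 and 307) and SLC43A2 (2.02), in a family with 14 of 213 members higher (6.57%, near the 5.47% of all genes) and 6 lower. ORAI3, a subunit of store-operated calcium channels in the p53 lists, was at 267 and 1243. LRRC8C, a subunit of volume-regulated anion channels, was lower, at a difference of -1.67. NPR1, the receptor for atrial natriuretic peptide, was at 10.4 and 92.3, in a list of G proteins and their receptors with 7 of 76 higher (9.21%) and 1 lower.

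**Figure D2:**
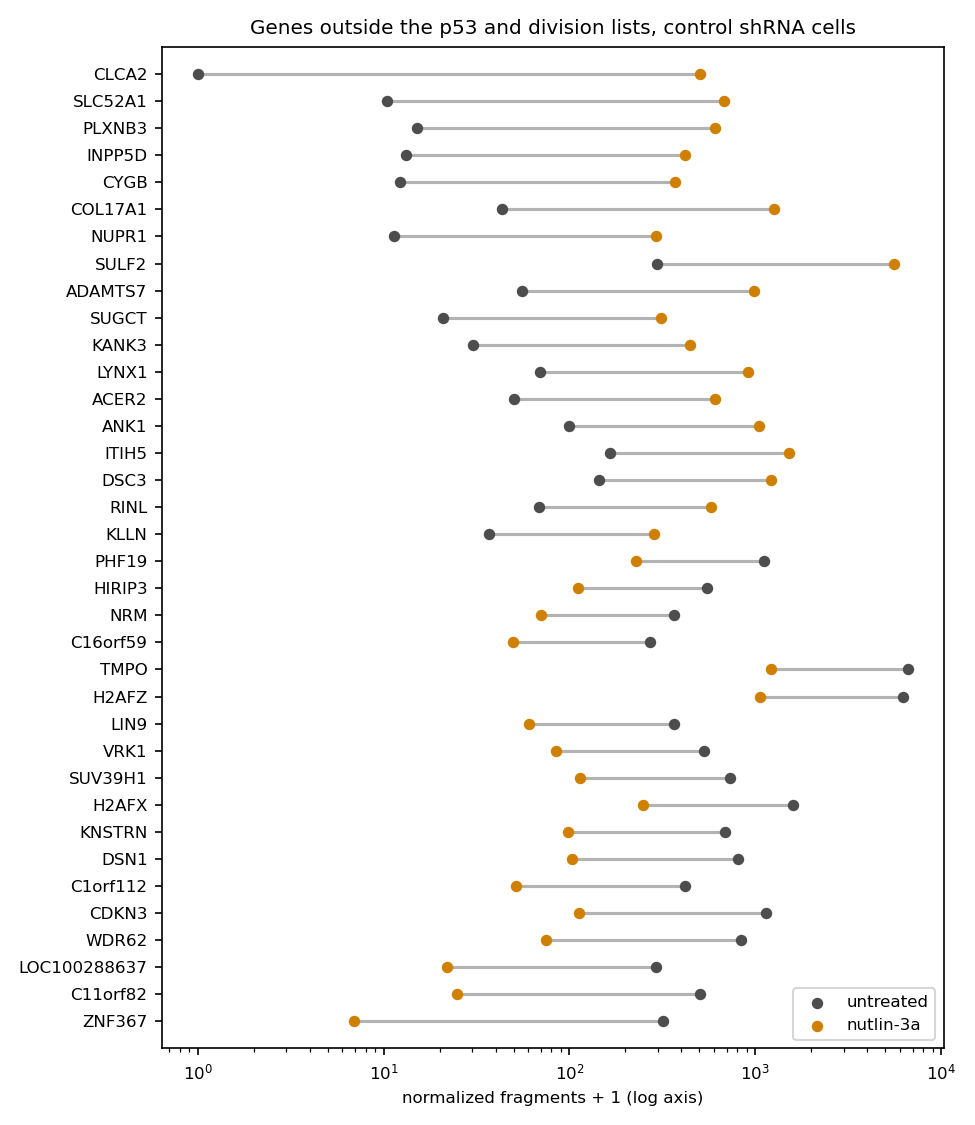
Normalized fragments + 1 on a log axis, untreated (grey) and with nutlin-3a (orange) in control shRNA cells, for the 18 highest and 18 lowest differences among genes outside the p53 and division lists with a mean of at least 150 and no shared reads found. CLCA2 starts at 0 untreated, and the lines of the higher genes are mostly longer than those of the lower genes.

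Several further genes had large differences. CYGB, which encodes the oxygen-binding protein cytoglobin, was at 11.3 and 367. The stress-induced nuclear protein gene NUPR1 stood at 10.4 and 291, and SUGCT, a mitochondrial CoA transferase, at 19.8 and 309. KANK3 was at 29.2 and 444, LYNX1, a modulator of nicotinic receptors, at 68.8 and 916, and the membrane skeleton gene ANK1 at 98.97 and 1045. The counting interval of each of these folds began above 8. KLLN, a reported p53 target, was at 35.8 and 284. WDR63, of the axonemal dynein list, was at 5.66 and 273. ACTA2, smooth muscle actin, was at 118 and 2271, but it is a shared-read gene that overlaps FAS, the death receptor, which stood at 160.2 and 2103; how much of its value comes from FAS reads was not tested.

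Secreted proteins of the coagulation, complement and protease inhibitor list had 8 of 55 members higher (14.5%, against 5.47% of all genes) and none lower, with a median of 0.35. ITIH5, a hyaluronan-binding chain of the inter-alpha-trypsin inhibitor family, was at 165 and 1507, 9.14-fold higher (7.81 to 10.7). The coagulation factor genes F5 (788 and 2773) and F8 (132 and 546) were also higher. Cytokine genes had 5 of 24 higher (20.8%) and 2 lower. Once members of the p53 and division lists were set aside, 21 cytokine genes remained, 3 of them higher (14.3%) and 2 lower (9.52%). The median difference of the cytokine list was 0.13 with those members and -0.05 without them. IL33 was at 33.0 and 122 and CD70 at 31.1 and 127, while CXCL8, a neutrophil chemokine, was at 51.8 and 19.9. The growth factor PGF of the p53 lists was at 13.2 and 107, and EREG, a ligand of the EGF receptor, at 887 and 391.

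Interferon-stimulated genes had 5 of 58 higher (8.62%) and 2 lower (3.45%), near the 5.47% and 5.62% of all genes, and 4 of 56 higher without members of the p53 and division lists. Their median was 0.26, and the members with the largest differences lay on both sides. TRIM22, an antiviral ligase of the p53 lists, was at 14.1 untreated and 415 with nutlin-3a, and the DNA sensor IFI16 at 49.96 and 172. The RNA exonuclease gene ISG20 was at 289 and 75.4, and OAS3, a double-stranded RNA sensor, at 2393 and 694. Toll-like receptor genes TLR3, of the p53 lists, and TLR5 were higher, by 1.67 and 1.27. Their list of innate sensor, NF-kB and inflammasome genes had 4 of 67 higher (5.97%) and 3 lower (4.48%), near the shares over all genes. MR1, which presents vitamin metabolites to T cells, was at 110.3 and 647, and TAP1, the peptide transporter and a shared-read gene, at 578 and 1783. LACC1, a metabolic enzyme of innate immunity, was at 130.1 and 745.

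Abundant genes differed as well. ALDH3A1, an aldehyde dehydrogenase and a target of NRF2, was at 22883 untreated and 121294 with nutlin-3a, 5.30-fold higher (5.23 to 5.37), and went from 0.145% to 0.773% of all fragments. ALDH1A1 was at 213494 and 287908, a fold of 1.35 and no call, but made up 1.35% and 1.83% of the libraries. GPX2, a glutathione peroxidase, was at 15789.5 and 34108, and GPX1 at 1749 and 5282. KEAP1, the inhibitor of NRF2, is inactive in A549, where NRF2 targets are known to be highly expressed. The 58 measured genes of the NRF2, glutathione and aldo-keto reductase list summed to 5.39% of fragments untreated and 7.38% with nutlin-3a. Of them 6 were higher (10.3%) and 1 lower (1.72%), against 5.47% and 5.62% of all genes. The lower gene was CBR3 (69.8 and 20.8), and the median of the list was 0.21.

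The 698 higher genes together went from 1.52% to 5.17% of fragments and the 717 lower genes from 5.49% to 1.43%; these sums follow from how the genes were called. With nutlin-3a 908 genes made up 50% of the library, against 1008 untreated. After TUBA1B, the genes with the most fragments less were TUBB (29700.4 and 6664), the chaperone gene HSP90AA1 (30629.8 and 15851) and HNRNPA2B1 (27037 and 12892), which encodes an RNA-binding protein. Beside the aldehyde dehydrogenases, those with the most fragments more included CDKN1A, MDM2, the aldo-keto reductase AKR1B10 (56744 and 80986) and EEF2 (27932 and 45059), the ribosomal translocase.

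The 30 lowest genes outside the p53 and division lists included several that act in mitosis. The zinc finger factor gene ZNF367 was at 319 untreated and 5.96 with nutlin-3a, 53.5-fold lower (24.3 to 147). GSG2, which encodes the mitotic kinase haspin and is a shared-read gene, was at 288 and 12.8. WDR62, a spindle pole protein, was at 834 and 73.5, CDKN3, a phosphatase of cyclin-dependent kinases, at 1138 and 111, and DSN1, of the kinetochore, at 800.3 and 102. VRK1 (-2.66), KNSTRN (-2.80) and GPSM2 (-2.93) are also known from mitosis, and LIN9 (365 and 59.6) is a subunit of the MuvB core of DREAM itself. The genes C11orf82 (-4.34), C1orf112 (-3.03), C16orf59 (-2.45) and LOC100288637 (-3.73) were also among these 30. So were genes with other or less clear roles: the shared-read genes MXD3 (-3.50), a partner of MAX, and PAQR4 (-2.38), as well as HIRIP3 (-2.31), LRR1 (-2.21), PPIH (-2.19), a cyclophilin of the spliceosome, SLFN13 (-2.16) and CTNNAL1 (-2.11).

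Several chromatin genes were far below their untreated level. The histone variants H2AFZ and H2AFX were at 6216 and 1598 untreated and at 1063 and 248 with nutlin-3a, 5.85-fold (5.48 to 6.24) and 6.44-fold (5.63 to 7.38) lower. EZH2, the methyltransferase of Polycomb complex PRC2, was at 808 and 167, its partner PHF19 at 1108 and 226, and the H3K9 methyltransferase SUV39H1 at 729 and 113. UHRF1, which brings the maintenance methyltransferase to replicated DNA, had a difference of -3.32, and the chromatin protein HMGB2 one of -3.49; both are in the division lists. Of 55 genes for DNA methylation, Polycomb and heterochromatin 13 were lower (23.6%, against 5.62% of all genes) and 1 higher, with a median of -0.37. Not all histone genes were low. HIST2H2BE was at 71.6 and 195, and the other 4 measured HIST genes had differences of 0.25 to 0.28. H3F3A, a shared-read gene, was at 70.0 untreated and 0.0440 with nutlin-3a in control shRNA cells. Its values may depend on how shared reads were assigned among models, so no fold is given. H3F3A was near 0 in both LIMA1 shRNA libraries, at 0.0407 and 0.0519.

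Nuclear lamina and nuclear pore genes had the lowest median of the lists beyond those of p53 and division, -0.78, with 18 of 52 lower (34.6%, against 5.62% of all genes) and none higher. Among symbol families the median was lower still in nucleoporins (-0.91) and centromere proteins (-2.49). The histone list had 6 of 16 genes lower, the shared-read gene H3F3A among them. LMNB1 and LMNB2, the B-type lamins, were at 1852 and 3862 untreated and 176 and 896 with nutlin-3a. TMPO, a lamina-associated membrane protein, was at 6631 and 1212, 5.47-fold lower (5.15 to 5.82), and the importin KPNA2 at 8568 and 1692. All 20 measured nucleoporins had differences below 0, against 51.5% of all genes, and 7 were lower, led by the pore scaffold members NUP107 (2028 and 602), NUP85 (-1.58) and NUP205 (-1.44). NRM, nurim of the inner nuclear membrane, was at 366 and 69.5. Some of these genes are in the division lists too; without the members of the p53 and division lists the list had 16 of 50 genes lower and a median of -0.76.

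Most tubulins had differences below 0. TUBA1B was at 31878 untreated and 4209.8 with nutlin-3a, 7.57-fold lower (7.33 to 7.82), TUBA1C at 12706 and 3546, and TUBB4B at 9486 and 2262. With TUBB, often used as a reference gene, they are the main subunits of microtubules in dividing cells. Of 19 measured tubulins 18 had differences below 0 and 7 were lower (36.8%), and the family went from 0.622% to 0.167% of fragments. STMN1, which takes up free tubulin dimers, was at 4280.4 and 481. TUBA1B, TUBB4B and STMN1 are in the division lists. In the list of tubulin and microtubule-associated genes 8 of 69 were lower (11.6%, against 5.62% of all genes). Without members of the p53 and division lists 5 of 66 were lower (7.58%), nearer the share over all genes. Actin and focal adhesion genes had 4 of 112 higher (3.57%) and 5 lower (4.46%), under the shares over all genes, with a median of -0.06 that became 0.03 under upper-quartile scaling.

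Some lists had small differences per gene that lay mostly on one side, while 51.5% of all genes were below 0. Of 74 ribosome biogenesis genes 72 had differences below 0, with a median of -0.46 and 4 lower, which were LYAR (-1.29), NOP56 (5217 and 2147), NOLC1 (-1.08) and DKC1 (-1.02), which act on ribosomal RNA in the nucleolus. MYC, a driver of these genes in many cells, was at 1785 and 835, 2.14-fold lower (1.97 to 2.32). Of 86 splicing factors 9 were lower (10.5%, against 5.62% of all genes) and none higher, with a median of -0.55, and the list went from 1.74% to 1.15% of fragments. DDX39A, an RNA helicase, was the lowest of them, at 1447 and 448. Of 45 proteasome genes 39 were below 0, with a median of -0.30 and no call. That median was -0.21 under upper-quartile scaling and -0.18 once the trend in transcript length and GC content was removed. PSMG1, an assembly chaperone, had the lowest difference of these genes, -0.85. DEAD and DEAH helicases had 44 of 52 below 0 and mitochondrial ribosomal proteins 60 of 79.

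In the opposite direction, 63 of 74 cytosolic ribosomal protein genes had differences above 0, against 48.5% of all genes, with a median of 0.15 and no call; RPS19 was highest, at 19913 and 35904. Lysosome genes had 57 of 72 above 0, 7 higher (9.72%) and none lower, with a median of 0.33. GM2A, which presents gangliosides for breakdown, was at 1109 and 2997, the arylsulfatase ARSA at 280.0 and 737, and PSAP, the saposin precursor, at 21310.3 and 36137. As a share of all fragments, lysosome genes went from 0.879% to 1.24%. Of 45 autophagy machinery genes none was called, and the median was 0.27, with the receptor OPTN highest at 0.85. Fatty acid oxidation and peroxisome genes had a median of 0.23, 1 higher (CROT, 1.24) and 2 lower (ACOX2, -1.07, and PXMP2, -1.02). Cytochrome P450 and steroid enzymes had 7 of 28 higher, against 5.47% of all genes, and DHRS2 lower (223 and 45.7), with CYP4F2 at 4.71 and 67.5 and CYP4F3 at 435 and 1269.

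**Figure D3:**
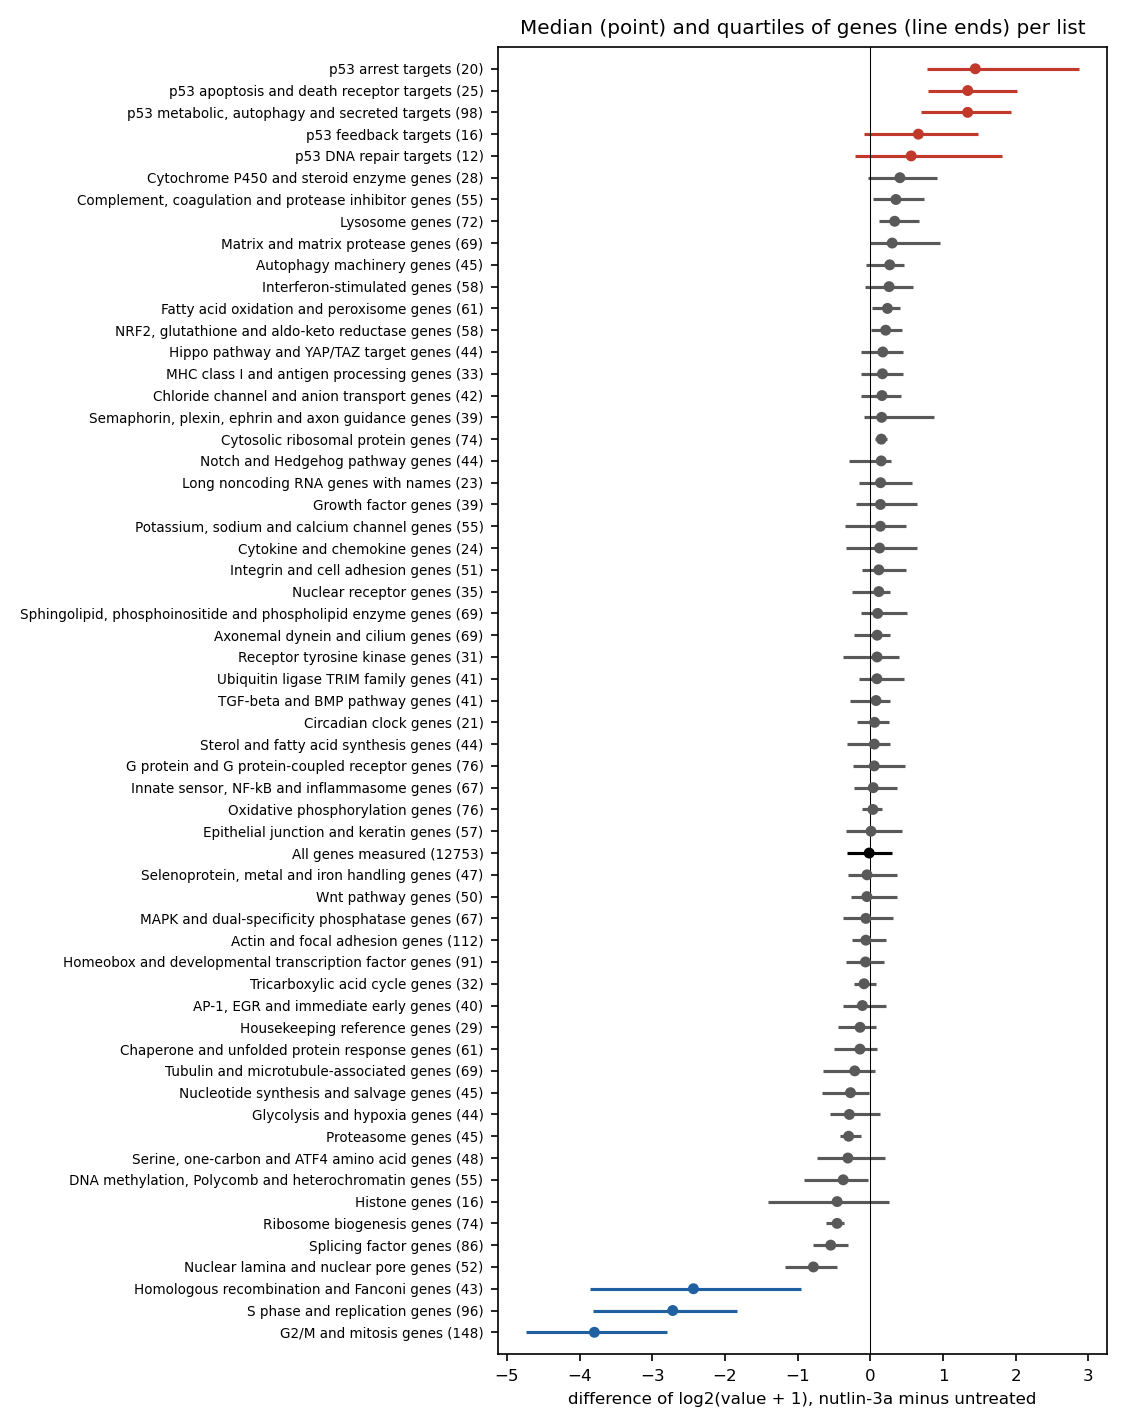
Median difference of log2(value + 1) (points) and the quartiles of the genes (ends of the lines) for lists with at least 5 measured members, number measured in brackets; p53 lists in red, division lists in blue, all measured genes in black. Outside the coloured lists, nuclear lamina and pore genes lie lowest at -0.78 and cytochrome P450 and steroid enzyme genes highest at 0.41.

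Metabolic lists differed in their counts. In nucleotide synthesis 6 of 45 genes were lower (13.3%, against 5.62% of all genes) and 2 higher, with a median of -0.27: the purine genes HPRT1 (1312 and 561) and PAICS (4951 and 2174) were lower, and XDH, which degrades purines, was higher (43.4 and 139). In the serine, one-carbon and ATF4 list 6 of 48 were lower and 1 higher, led by PHGDH, the first enzyme of serine synthesis (691 and 196), and SHMT1 (1205 and 362). Glycolysis and hypoxia genes had 3 of 44 lower (6.82%, near the share over all genes) and none higher, with a median of -0.29. These 3 were the carbonic anhydrase CA9 (900.2 and 207), hexokinase HK2 (82.0 and 29.8) and the lactate exporter SLC16A3 (487 and 184). By contrast none of 76 oxidative phosphorylation genes was called, and their differences lay between -0.43 and 0.46. None of 32 tricarboxylic acid cycle genes and none of 35 nuclear receptor genes was called either, against 11.1% of all genes called in either direction. That share is not matched for level, and calls were rarer among well expressed genes. All oxidative phosphorylation genes were at 408 or more untreated. At a mean of 300 to 1000, 3.32% of genes were higher and 5.57% lower.

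Signalling lists held single members with large differences. In the AP-1 and immediate early list FOSL1 was at 145 and 547 and KLF2 at 81.1 and 36.7. Wnt pathway genes had 5 of 50 higher, against 5.47% of all genes, and 1 lower; the planar polarity gene VANGL2 had a difference of 1.73 and NKD1, a Wnt inhibitor, one of -1.68. In the TGF-beta and BMP list GDF15, a stress cytokine of the p53 lists, was at 370.4 and 3002. HHAT, which attaches palmitate to Hedgehog proteins, was at 112 and 856, and HES2 at 16.0 and 388; both are in the p53 lists. ECT2 (-2.35) and RACGAP1 (-3.71), which position the cleavage furrow, were lower. Among chaperones DNAJC9, a histone chaperone, was at 1002 and 257, and the small heat shock gene HSPB8 at 173 and 648. Zinc finger ZNF genes had 15 of 350 higher (4.29%) and 9 lower (2.57%), under the 5.47% and 5.62% of all genes.

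Of 628 measured models whose names start with lnc-, which stand for long noncoding RNAs, 93 (14.8%) were higher and 32 lower, against 564 (4.84%) and 664 of 11663 protein-coding genes. These models were mostly weakly expressed. At a mean of 30 to 100, where 388 of them lay, 15.2% were higher, close to the 13.2% of 1330 protein-coding genes of that level, and of the 188 without shared reads 8.51% were higher. At 100 to 300 the shares were 14.6% of 158 models and 6.45% of 2326 protein-coding genes, with 8 of 61 models without shared reads higher. At 300 or more, 13.4% of 82 models and 2.97% of 8007 protein-coding genes were higher. Of the 41 models without shared reads at that level 3 were higher (7.32%). Of the 93 higher models, 66 were shared-read models. For 61 of the 93 the gene in the name was measured too, and that gene was higher for 10 (16.4%), against 23 of 400 (5.75%) over all such models. NEAT1, the RNA scaffold of paraspeckles, was at 2715 untreated and 8441 with nutlin-3a, 3.11-fold higher (2.98 to 3.24). The model lnc-ACER2-1 was at 33.0 and 448, with ACER2 itself higher as given above, and lnc-IGFL3-2 was at 102 and 2123; neither showed shared reads. H19, an imprinted RNA and a shared-read gene, was at 1539 and 463.

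Promoter sequences were read for 9802 of the measured genes from the RefSeq table of build GRCh38.p14, which is not the hg19 build of the deposited files, as 300-base windows from 250 bases before to 50 after each gene's start. Patterns were searched on both strands. The CHR, TTTGAA, was in 9.42% of all windows, in 36.8% (89 of 242) of those of genes lower by at least 2, in 42.5% (62 of 146) of those lower by at least 3, and in 9.98% (46 of 461) of those of higher genes. CCAAT was in 36.7% of all windows, in 62.0% of those lower by at least 2 and in 34.5% of those of higher genes. E2F patterns, TTTCCCGC or TTTGGCGC, were in 3.82%, 16.5% and 2.82%. CHR and CCAAT together were in 4.06% of all windows and in 27.3% of those lower by at least 2. Read the other way, 23.4% of the 398 genes with both were lower, against 4.01% of the 5683 genes with neither. In genes lower by at least 2 the first CHR lay a median of 18 bases before the start, and over all windows with one 133 bases before it. Among lower genes outside the p53 and division lists, 16.7% of 341 windows held a CHR and 10.6% an E2F pattern. These matches describe letters in a window and not a bound site.

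**Figure D4:**
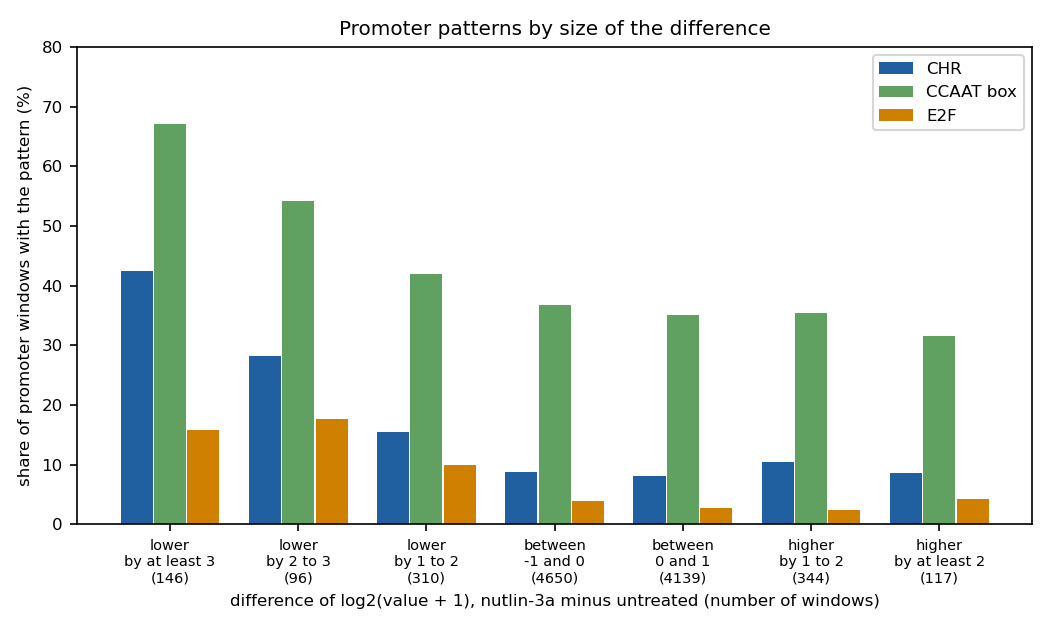
Share of 300-base promoter windows that hold a CHR, a CCAAT box or an E2F pattern, in percent, by size of the difference of log2(value + 1), with the number of windows in brackets. The CHR bars go from 42.5% in genes lower by at least 3 to 8.55% in genes higher by at least 2.

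The 4 windows below are those of the lowest named genes with a CHR that are not shared-read genes, each read on the gene's own strand, shown because their letters carry this contrast, with CHR and CCAAT matches in capitals on either strand (TTCAAA and ATTGG are the reverse complements). CKAP2L binds the spindle (chr2:112764560-112764859, minus strand; 627 untreated and 8.93 with nutlin-3a). SKA1 holds kinetochores to microtubules (chr18:50374796-50375095, plus strand; 459 and 8.93). CENPA is the centromeric histone (chr2:26785806-26786105, plus strand; 604 and 12.9), and KIF14 is a kinesin of cytokinesis (chr1:200620702-200621001, minus strand; 1534 and 35.7). In all 4 a CHR lies close to the start, which follows the first 250 bases of the window, and in 3 of them with a CCAAT match before it.
CKAP2L: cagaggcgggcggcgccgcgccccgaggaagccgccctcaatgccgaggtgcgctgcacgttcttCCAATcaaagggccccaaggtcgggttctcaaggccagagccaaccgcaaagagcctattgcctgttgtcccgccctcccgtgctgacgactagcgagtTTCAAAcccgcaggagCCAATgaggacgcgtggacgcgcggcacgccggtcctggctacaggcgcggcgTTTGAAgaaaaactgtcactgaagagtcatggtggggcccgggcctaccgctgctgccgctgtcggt
SKA1: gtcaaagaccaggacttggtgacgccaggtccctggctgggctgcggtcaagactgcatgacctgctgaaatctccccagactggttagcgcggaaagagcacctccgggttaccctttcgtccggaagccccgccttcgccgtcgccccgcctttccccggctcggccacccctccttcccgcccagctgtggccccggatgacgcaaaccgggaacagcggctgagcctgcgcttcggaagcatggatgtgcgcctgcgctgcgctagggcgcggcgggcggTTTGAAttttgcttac
CENPA: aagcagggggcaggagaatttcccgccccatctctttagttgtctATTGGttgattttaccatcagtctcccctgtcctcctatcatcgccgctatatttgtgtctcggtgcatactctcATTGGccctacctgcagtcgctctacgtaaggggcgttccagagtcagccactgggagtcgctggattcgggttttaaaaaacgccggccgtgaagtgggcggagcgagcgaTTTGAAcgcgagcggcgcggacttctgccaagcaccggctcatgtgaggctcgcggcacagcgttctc
KIF14: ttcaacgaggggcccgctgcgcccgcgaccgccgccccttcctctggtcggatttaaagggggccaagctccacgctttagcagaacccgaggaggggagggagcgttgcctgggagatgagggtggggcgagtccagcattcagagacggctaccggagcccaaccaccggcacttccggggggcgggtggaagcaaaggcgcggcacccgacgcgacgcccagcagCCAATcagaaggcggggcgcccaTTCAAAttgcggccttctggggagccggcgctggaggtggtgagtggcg

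The core letters of a p53 site, searched as CATG, any 6 bases and CATG, were rare in these windows: 15 of 9802 (0.153%) held them, 2 of which belonged to the 461 higher genes with a window and none to the 552 lower genes. The 2 higher genes were TRIAP1, an inhibitor of apoptosis in the p53 lists (780.5 and 3019; chr12:120446335-120446634, minus strand), and the semaphorin receptor gene PLXNB2 (3527 and 7919.5; chr22:50301620-50301919, minus strand), which was chosen after its values were seen. Both windows are printed with these letters in capitals; they lie after the start in TRIAP1 and near the far end of the window in PLXNB2. Windows without them say nothing of p53 binding, which is known to occur also in introns and at distance.
TRIAP1: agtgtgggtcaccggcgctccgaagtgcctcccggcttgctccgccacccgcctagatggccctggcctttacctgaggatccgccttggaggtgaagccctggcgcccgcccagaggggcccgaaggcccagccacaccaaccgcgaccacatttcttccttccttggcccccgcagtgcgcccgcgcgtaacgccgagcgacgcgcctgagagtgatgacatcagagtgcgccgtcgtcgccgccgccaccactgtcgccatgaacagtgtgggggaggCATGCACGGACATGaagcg
PLXNB2: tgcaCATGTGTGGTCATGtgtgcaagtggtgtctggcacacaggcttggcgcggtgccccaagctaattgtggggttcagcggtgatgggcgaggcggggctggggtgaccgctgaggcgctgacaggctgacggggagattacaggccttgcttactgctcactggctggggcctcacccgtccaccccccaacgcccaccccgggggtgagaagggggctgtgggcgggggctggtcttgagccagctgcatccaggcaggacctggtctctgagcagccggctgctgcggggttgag

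Called genes next to each other on the chromosome were counted over 11992 genes with a place in the RefSeq table of GRCh38.p14. Of 596 higher genes 85 (14.3%) had a higher gene as nearest measured neighbour on either side, against 9.71% of all genes, and of 680 lower genes 103 (15.1%) had a lower one, against 11.03%. Lower runs of 3 included HPDL with MUTYH and TOE1 on chromosome 1 and NRM with MDC1 and TUBB on chromosome 6. The single higher run was TNFSF15, PAPPA and ASTN2 on chromosome 9. These runs were chosen after their values were seen.

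The LIMA1 shRNA cells gave the same genes in most cases. In that line 933 of the same 12753 genes were higher (7.32%) and 786 lower (6.16%). Of the genes higher in control shRNA cells 590 were higher in LIMA1 shRNA cells too, which is 84.5% of the first list and 63.2% of the second; for lower genes the overlap was 588, or 82.0% and 74.8%. The median over the genes called higher in control shRNA cells was 1.44 there and 1.57 in LIMA1 shRNA cells, and over those called lower it was -1.73 and -1.68; the first of each pair was used to choose the genes. COL17A1 was at 19.8 and 1219 in LIMA1 shRNA cells, SULF2 at 329.5 and 7642, CLCA2 at 0 and 535, and ALDH3A1 at 20011 and 115255. Each of these 4 genes was called higher in both lines. Among lower genes TMPO was at 7372 and 1139.9 and H2AFZ at 6892 and 1289. Calls in opposite directions were found for 7 genes, all of them shared-read genes. Whether any response differs between the lines cannot be tested with 1 library per group.

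**Figure D5:**
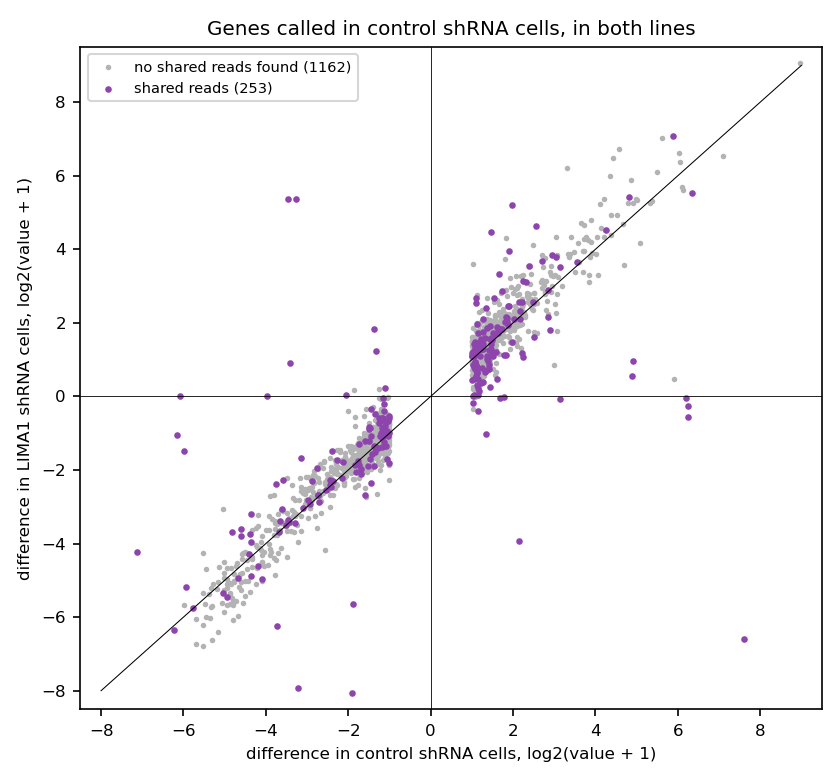
Difference of log2(value + 1), nutlin-3a minus untreated, in LIMA1 shRNA cells against control shRNA cells for the 1415 genes called in control shRNA cells, with the diagonal drawn; purple points are shared-read genes. Grey points follow the diagonal, and the points in the 2 quadrants of opposite sign with large differences are mostly purple.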

How the data were processed

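RNA was sequenced from 4 A549 libraries, 1 per group, grouped by their titles; these say si, and the labels' protocols say shRNA. The submitters' processing notes list Bowtie2 2.0.12, Cuffnorm 2.2.1, bcl2fastq 1.8.3 and genome build hg19. The role of each, the annotation and the strand setting are not given in the sources used here. What the authors deposited is a signal per gene model. By its low values this is a number of fragments over 1 scaling factor for each library: between 0.5 and 1000 fragments, 85.5% to 86.3% lay within 0.1 of a whole number of fragments. This is under the 95% set for a count test, so none was run.

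Differences of log2(value + 1) were taken on these values, joined by gene name, for genes with a mean of at least 30. The members and lists were chosen with earlier results of these data known, so their counts are descriptions. Named genes include CDKN1A, MDM2 and LIMA1; the 30 with the highest and the 30 with the lowest difference beyond the p53 and division lists with a mean of at least 150, without small RNAs and lnc- models; the 12 largest gains and losses in value; up to 4 members of each list or symbol family with the largest differences; genes at 3 fragments or fewer in one library and at least 100 in the other; and the 8 highest and 8 lowest lnc- or LINC models. Some genes that meet these rules are not reported here. Promoters printed are up to 4 a side, by size of the difference, whose window holds a pattern. Libraries held 15.2 to 16.7 M fragments, so precision was similar. The script for calls and intervals was tested on simulated counts. Promoters came from RefSeq (GRCh38.p14) and transcript lengths from GENCODE 29, neither on the files' build. Python 3.11.15, numpy 2.4.6, pandas 2.3.3, scipy 1.17.1 and matplotlib 3.10.9 were used. Alternatives were other pseudocounts, scalings, sizes and filters. Removal of the trend in transcript length and GC content was added after seeing the data.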

Additional observations from a re-analysis of the deposited data

Results flagged for a closer look

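For 7 genes the response had opposite signs in the 2 cell lines, by at least 1 on the log2(value + 1) scale in each; all 7 are shared-read genes, and the difference between the lines was not tested, with 1 library per group. C9orf69 was higher with nutlin-3a in control shRNA cells, by 7.60 (1.63 untreated and 509.8), and its difference in LIMA1 shRNA cells was -6.59. Also higher in control shRNA cells and lower in LIMA1 shRNA cells were lnc-SAFB2-1, by 2.13 (LIMA1 shRNA -3.93) and lnc-USP34-1 by 1.34 (-1.03). The other 4 were lower in control shRNA cells: DYNLL1-AS1 had -3.46 there and 5.37 in LIMA1 shRNA cells, SCAMP1-AS1 had -3.27 and 5.38, LOC102724316 had -1.39 and 1.84, and lnc-AC127496.3-1 had -1.33 and 1.24.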

How the results depend on the processing

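No paired analysis was possible because each group has 1 library, and for the same reason no replicate could be left out. The 698 higher and 717 lower genes kept to within 1.5 times those counts under other pseudocounts (483 to 703 and 572 to 725), other scalings (707 to 835 and 629 to 714), a mean over all 4 libraries, and without lnc- models, shared-read genes or the length and GC trend. The filter and the size mattered more. Higher genes numbered 1131 at a mean of at least 10, 358 at 150 and 2743 with no filter, where 1802 were lower. At a size of 2 there were 186 and 309, at 0.58 there were 1713 and 1643, and 419 higher genes had a counting interval past the size. The median of the division lists was -2.82 with a pseudocount of 30, against -3.30. Upper-quartile scaling moved the median of all genes by 0.09 and turned the sign of 13 list or family medians, all of them within 0.1 of 0, among them the tricarboxylic acid cycle, Wnt and integrin genes. Among 460 named genes no called difference changed sign in any alternative run; a pseudocount of 30 ended 41 calls and upper-quartile scaling 10. Differences of genes with few fragments are limited by counting, and by the missing replicates throughout.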

Other observations

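Some symbol families not described above also had members that stood apart. Of 15 measured annexins, calcium-dependent membrane binders, 4 were higher (26.7%, against 5.47% of all genes) and none lower. ANXA8 was at 20.7 untreated and 90.3 with nutlin-3a, and its near-identical copy ANXA8L1 at 52.8 and 260.1. ANXA9 was at 48.1 and 147, and ANXA13 at 2021 and 4665. Reads of ANXA8 and ANXA8L1 could have been split between the copies. Of 54 F-box genes, substrate receptors of ubiquitin ligases, 7 were higher and 2 lower; FBXO2 was at 75.4 and 239, and FBXO43, an inhibitor of the anaphase-promoting complex, at 60.3 and 0.993. None of 11 S100 genes was called, which for so few genes is close to the 11.1% of all genes called in either direction. In the APOBEC3 cluster of cytidine deaminases, members lay on opposite sides: APOBEC3C of the p53 lists was at 343 and 1877, and APOBEC3B at 174 and 24.8. In LIMA1 shRNA cells the differences of this pair were 2.58 and -3.57.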
